A study of Mus musculus with 9 samples.

Results

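This account covers 10 genes for cytokine receptors that act in the growth and polarization of dendritic cells (DCs), the antigen-presenting cells that start T cell responses. They are Il7r, Csf2ra, Csf2rb, Csf2rb2, Csf3r, Il4ra, Il13ra1, Il10ra, Il2rg and Flt3. The genes were chosen by name with earlier results of these data known, and a gene was read through probes annotated with its symbol and no other. Of the 10, 9 had such a probe, 1 each, among 22180 genes measured, and Il2rg was not analysed here.

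RNA came from CD11c+ MHC class II+ DCs sorted from the spleens of mice on the C57BL/6 background, labelled naive. The 3 knockout samples (C/EBPbeta-/-) came from CD11c.Cre x C/EBPβ flox/flox mice, in which Cre, made under the promoter of the DC and macrophage gene for CD11c, deletes the floxed gene of the transcription factor C/EBPβ. The 6 control samples (C/EBPbeta+/+) kept the factor. The design text gives CD11c-Cre-eGFP mice as the source of controls, while the protocols list both C57BL/6 and CD11c.Cre mice and do not say which sample came from which. Samples exposed to Eµ-Myc lymphoma, which the design text also names, were not analysed here. Ages and the number of animals per sample are not given, so the p-values measure the spread between samples, which may be technical. The design text asks what C/EBPβ does in the maturation and fate of DCs at rest.

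Most of these receptors belong to the hematopoietin family. Their chains have no kinase of their own and signal through bound Janus kinases (JAKs), which phosphorylate STAT transcription factors. Il4ra pairs with Il2rg or Il13ra1 to read IL-4 and IL-13, and Il7r pairs with Il2rg for IL-7 and with Crlf2 for thymic stromal lymphopoietin (TSLP), an epithelial cytokine that activates DCs. Csf2ra binds the growth factor GM-CSF and signals with the common beta chain Csf2rb. Csf2rb2 is a close copy of that chain in the mouse and serves the IL-3 receptor. Csf3r is the G-CSF receptor of granulocytes, Il10ra the ligand-binding chain for the anti-inflammatory cytokine IL-10, and Flt3 a receptor tyrosine kinase on which DC development depends.

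Promoter windows of the receptors with the largest log2 changes are shown first. These are the stretches where factors such as C/EBP, STAT and PU.1 could bind. The RefSeq table (GRCm38.p6) held a window of 250 bases before to 50 after the start for 8 of the 10 genes. Capitals mark matches on either strand to TTGCNNAA (a C/EBP motif), TTCNNNGAA (STAT) or GAGGAA (the core bound by PU.1), and no match overlaps another in these windows.

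Il7r (chr15:9529827-9530126, minus strand): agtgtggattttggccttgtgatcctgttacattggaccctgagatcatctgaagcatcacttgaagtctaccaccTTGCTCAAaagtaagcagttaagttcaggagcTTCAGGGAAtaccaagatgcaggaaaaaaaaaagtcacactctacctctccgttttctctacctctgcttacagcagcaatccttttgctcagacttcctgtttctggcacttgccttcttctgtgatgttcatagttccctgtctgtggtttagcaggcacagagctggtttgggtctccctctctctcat
Csf2rb2 (chr15:78305672-78305971, minus strand): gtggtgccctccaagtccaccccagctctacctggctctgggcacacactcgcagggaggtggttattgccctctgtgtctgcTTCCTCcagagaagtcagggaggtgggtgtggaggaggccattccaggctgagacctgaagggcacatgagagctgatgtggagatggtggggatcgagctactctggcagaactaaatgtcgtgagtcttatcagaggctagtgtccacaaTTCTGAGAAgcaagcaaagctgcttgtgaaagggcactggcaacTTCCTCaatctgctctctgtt
Csf3r (chr4:126024409-126024708, plus strand): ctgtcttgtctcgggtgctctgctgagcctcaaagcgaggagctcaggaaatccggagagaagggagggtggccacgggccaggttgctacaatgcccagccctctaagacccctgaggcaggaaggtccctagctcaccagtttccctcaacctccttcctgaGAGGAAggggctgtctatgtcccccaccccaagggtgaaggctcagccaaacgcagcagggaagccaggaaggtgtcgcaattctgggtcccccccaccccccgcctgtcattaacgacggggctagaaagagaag

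In Il7r the C/EBP match began 174 bases and the STAT match 142 bases before the start. In Csf2rb2 a STAT match began 15 bases before the start, and PU.1 core matches lay 167 bases before and 30 bases after it. Csf3r held a PU.1 core 86 bases before its start. Over the 8 windows, 1 held the C/EBP motif, 2 the STAT motif and 3 the PU.1 core, the third being that of Csf2ra. The same motifs were found in 10.8%, 8.3% and 28.3% of all 32851 windows of this length. The windows of Il4ra, Il13ra1, Il2rg and Flt3 held none of these motifs. Ranked by p instead of by change, Il4ra came before Csf3r, so a window without a match would have been shown in its place. A match describes the sequence and is not evidence of binding.

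Cebpb, the deleted gene, had log2 intensities of 5.37, 5.60 and 5.42 in knockout samples, against 6.64 to 7.15 in controls. All 3 knockouts lay below all 6 controls, as their labels require, and Cebpb fell by 1.35 (SE 0.11, limma's adjusted p = 0.00074). Of 6 measured pan-DC markers compared between knockouts and controls, 0 passed limma's adjusted p of 0.05 and 0 had an unadjusted p below it. This comparison cannot decide the identity of the cells, which were sorted by CD11c and MHC class II. The MHC class II gene H2-Ab1 averaged 13.7 in knockouts and 13.7 in controls, and the DC transcription factor gene Zbtb46 averaged 9.15 in knockouts and 9.29 in controls.

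Transcripts for chains of the receptors for TSLP and IL-7, for IL-3 and for IL-4 were higher in DCs without C/EBPβ. Il7r rose 1.63-fold, Csf2rb2 1.41-fold and Il4ra 1.35-fold, and no receptor of the set fell. By limma, 3 of 9 receptors passed an adjusted p of 0.05, all higher, where 0.906% of all genes passed in either direction and 0.415% were higher. Csf2rb and Csf3r differed by similar amounts and just missed the threshold. In these 5 genes all 3 knockout values lay above every control, as they did in 2.52% of all genes. In 0 of the 9 did they lie below every control, against 4.88% of all genes. All 9 changes were positive, with a median of 0.43, against a median of -0.014 over all genes, 45.0% of which had a positive change. These shares are a description only, since the receptors were chosen with earlier results known and all 9 were at or above the median level.

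**Figure D1:**
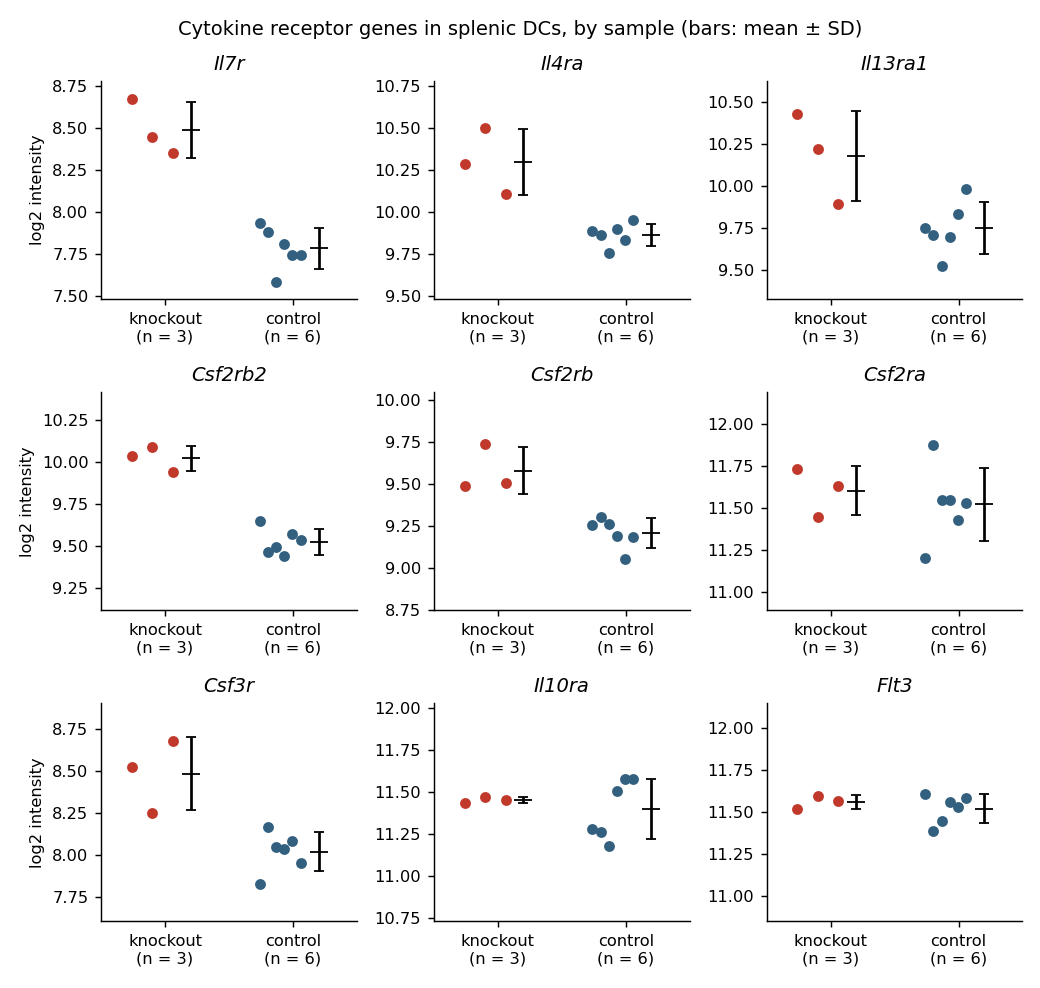
Log2 intensity of the 9 measured receptor genes in each knockout sample (red, n = 3, left) and each control sample (blue, n = 6, right), in replicate order within a group, with mean and SD as black bars; every panel spans the same log2 range. Knockouts lie above all controls for Il7r, Il4ra, Csf2rb2, Csf2rb and Csf3r, and within the controls' range for Csf2ra, Il10ra and Flt3.

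Il7r differed most. Its log2 intensity was 8.68, 8.45 and 8.35 in knockout replicates 1 to 3, against 7.94, 7.88, 7.59, 7.81, 7.75 and 7.75 in control replicates 1 to 6. The lowest knockout lay 0.42 above the highest control, more than the 0.35 spanned by all controls. The mean was 8.49 ± 0.17 in knockouts (SD, n = 3) and 7.78 ± 0.12 in controls (SD, n = 6). The difference of 0.71 (SE 0.09) had a 95% confidence interval of 0.51 to 0.91 and a limma adjusted p = 0.0086. It ranked 25th by p among all genes. Without any 1 of the 9 samples, Il7r still passed, with changes between 0.61 and 0.78 and the highest limma adjusted p, 0.049, without knockout replicate 2.

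Il7r is also a gene of T cells and innate lymphoid cells, so their markers are given beside it. Of 9 measured T cell markers, 0 passed limma's adjusted p of 0.05 and 8 were below the median gene. An unadjusted p under 0.05 was found for 3 of the 9 (2 higher, 1 lower), against 14.3% of all genes. Averaged and set to 0 at the controls' mean, the T cell markers stood at 0.11, -0.051 and 0.23 in knockouts and -0.061 to 0.028 in controls. Knockout replicates 1 and 3 thus lay above every control and knockout replicate 2 inside the controls' range, and the part of T cells in the Il7r change was not tested. The 9 natural killer and innate lymphoid markers averaged -0.11 to 0.029 in knockouts and -0.065 to 0.059 in controls, with 0 past limma's adjusted threshold and 1, lower, at an unadjusted p under 0.05. The B cell markers averaged 0.15, -0.17 and 0.77 in knockouts and -0.063 to 0.15 in controls, with 0 of 12 past limma's adjusted threshold and 2 at an unadjusted p under 0.05. Without knockout replicate 3, the sample with the highest B cell markers, the limma adjusted p of Il7r was 0.012.

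Crlf2, the chain that joins Il7r in the TSLP receptor, was 8.93, 8.80 and 8.88 in knockouts and 8.86 to 9.15 in controls. Its change was -0.12 (SE 0.07, limma's adjusted p = 0.51). The log2 difference of Il7r over Crlf2, set to 0 at the control mean, was 0.95, 0.85 and 0.68 in knockouts and -0.36 to 0.21 in controls. The groups did not overlap, and the log2 ratio of the chains was 0.83 higher in knockouts (exact permutation p = 0.012, the smallest that 84 splits allow, or 0.06 adjusted over 5 pairs). In the 9 repeats without 1 sample, the adjusted exact permutation p was 0.045 without control replicate 1. It was 0.089 without any other single control and 0.18 without any single knockout. In each repeat the groups still did not overlap, and the unadjusted p was the smallest that the remaining splits allow. These values thus follow the number of splits, and 0.045 arose because Csf2ra over Csf2rb reached the same limit.

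The IL-4 and IL-13 receptor chains had changes of nearly the same size. Il4ra, which binds IL-4 and docks STAT6, was 10.3, 10.5 and 10.1 in knockout replicates 1 to 3, against 9.89, 9.86, 9.76, 9.90, 9.83 and 9.95 in control replicates 1 to 6. The groups did not overlap, with a gap of 0.16 between the lowest knockout and the highest control. Its mean was 10.3 ± 0.20 in knockouts (SD, n = 3) and 9.87 ± 0.066 in controls (SD, n = 6). The difference was 0.43 (SE 0.08, interval 0.25 to 0.62, limma's adjusted p = 0.046). This call was near the threshold, since of the 9 fits that each left out 1 sample Il4ra passed only without knockout replicate 3 (adjusted p = 0.019). It missed in the other 8, with adjusted p up to 0.15 without knockout replicate 2, the sample with the highest Il4ra. Its change stayed between 0.33 and 0.53 in these fits.

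Il13ra1, the partner chain that forms the IL-13 receptor with Il4ra, was 10.4, 10.2 and 9.90 in knockouts, against 9.75, 9.71, 9.52, 9.69, 9.84 and 9.98 in control replicates 1 to 6. Knockout replicates 1 and 2 lay above all controls and replicate 3 lay below control replicate 6. The change was 0.43 (SE 0.12, interval 0.17 to 0.695) and did not pass over all genes (limma's adjusted p = 0.13). The log2 difference of Il4ra over Il13ra1 differed by 0.0032 between knockouts and controls, with a SD of 0.23 among knockouts and 0.11 among controls (exact permutation p = 0.95). Il4ra was highest in knockout replicate 2 and Il13ra1 in knockout replicate 1.

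Of the GM-CSF and IL-3 receptor chains, the beta chain Csf2rb2 rose, the common beta chain Csf2rb was higher in every knockout without passing the threshold, and the alpha chain Csf2ra had no detectable difference. Csf2rb2 was 10.03, 10.09 and 9.94 in knockout replicates 1 to 3, against 9.65, 9.46, 9.49, 9.44, 9.57 and 9.54 in control replicates 1 to 6. Its lowest knockout lay 0.29 above the highest control, which exceeds the 0.21 spanned by the controls. The change was 0.50 (SE 0.06, interval 0.35 to 0.64, limma's adjusted p = 0.0087). The call was lost without knockout replicate 2 (adjusted p = 0.062) and held in the other 8 fits that left out 1 sample.

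Csf2rb was 9.49, 9.74 and 9.51 in knockouts and 9.25, 9.31, 9.27, 9.19, 9.06 and 9.18 in control replicates 1 to 6. No knockout overlapped the controls, and the change of 0.37 (SE 0.08, interval 0.20 to 0.54) missed the threshold with limma's adjusted p = 0.053. In fits without 1 sample its adjusted p ran from 0.053 to 0.19, so it passed in none of the 9. Csf2rb and Csf2rb2 are neighbouring near-copies on chromosome 15. Which stretches the probes read is not given in the sources used here, so transcripts of the copies may not be fully told apart. The difference of Csf2rb2 over Csf2rb was 0.12 higher in knockouts, with SDs of 0.099 in knockouts and 0.13 in controls (exact permutation p = 0.19).

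Csf2ra was 11.7, 11.4 and 11.6 in knockouts and 11.2 to 11.9 in controls, so that all knockouts fell inside the controls' range. Its change was 0.082 (SE 0.12, interval -0.19 to 0.355, limma's adjusted p = 0.83). Among the 9 receptors it had the widest spread in controls, 0.68, set by control replicate 1 at the low end and control replicate 2 at the high end. Csf2ra over Csf2rb was 0.29 lower in knockouts (exact permutation p = 0.12, or 0.30 adjusted over 5 pairs). The difference was -0.13 without knockout replicate 2 (adjusted exact permutation p = 0.57) and -0.36 without control replicate 1 (0.045). The other 7 repeats without 1 sample gave adjusted p of 0.18 to 0.48.

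**Figure D2:**
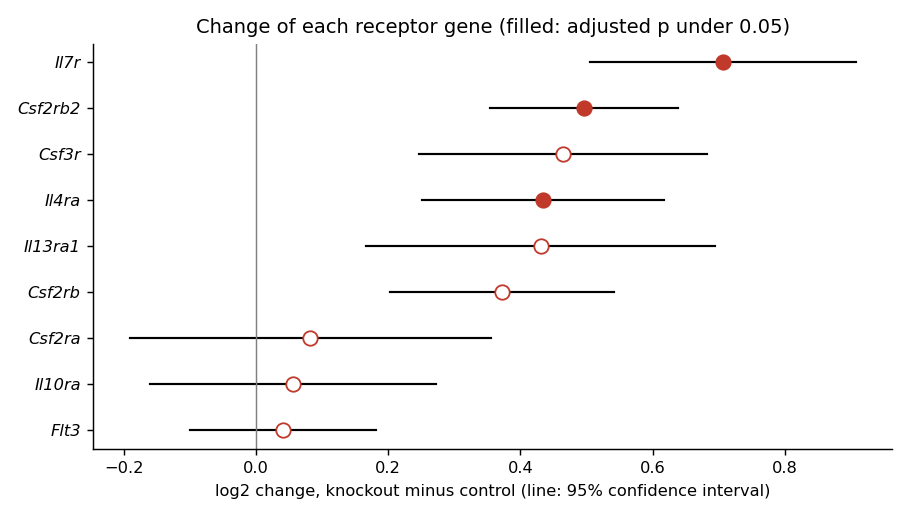
Log2 change of each receptor gene, knockout minus control, with limma's 95% confidence interval; filled points passed an adjusted p of 0.05 over all 22180 genes. Il7r, Csf2rb2 and Il4ra passed, and the intervals of Csf3r, Il13ra1 and Csf2rb also lie above 0, while those of Csf2ra, Il10ra and Flt3 span it.

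Csf3r was 8.52, 8.25 and 8.68 in knockout replicates 1 to 3, against 7.83, 8.17, 8.05, 8.03, 8.08 and 7.95 in control replicates 1 to 6. The groups did not overlap, but the lowest knockout stood 0.084 above the highest control, less than the spread within either group. The change was 0.46 (SE 0.10, interval 0.25 to 0.68) and missed the threshold with limma's adjusted p = 0.057. Csf3r is best known from neutrophils, so their markers were read as well. Of 12 neutrophil markers, 0 passed limma's adjusted threshold and 1 had an unadjusted p under 0.05, against 14.3% of all genes. Of the 12, 11 were dimmer than the median gene. The mean of all 12 was -0.012 to 0.086 in knockouts and -0.055 to 0.037 in controls. The neutrophil marker gene S100a8 averaged 3.42 in knockouts and 3.23 in controls, and Cxcr2, the neutrophil chemokine receptor, 5.96 in knockouts and 5.95 in controls. The part of neutrophils in the Csf3r values was not tested.

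The IL-10 receptor chain Il10ra and the receptor Flt3 had no detectable difference. Il10ra was 11.43, 11.47 and 11.45 in knockouts and 11.28, 11.26, 11.18, 11.51, 11.58 and 11.58 in control replicates 1 to 6. The knockouts lay between control replicates 1 to 3, which were lower, and control replicates 4 to 6, which were higher. The labels do not say whether this split follows the source of the control mice. The change of Il10ra was 0.056 (SE 0.098, interval -0.16 to 0.27, limma's adjusted p = 0.86), and its SD was 0.018 in knockouts and 0.18 in controls. With the replicate number as a block, where control replicates 4 to 6 add nothing to the estimate, the change was 0.213. Il10rb, the second IL-10 receptor chain, was 10.7 in each knockout and 10.5 to 10.6 in controls, with all 3 knockouts above every control. Its change of 0.14 did not pass (limma's unadjusted p = 0.028, adjusted p = 0.28). The ratio of Il10ra over Il10rb differed by -0.080 (exact permutation p = 0.46).

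Flt3 was 11.52, 11.60 and 11.57 in knockouts and 11.39 to 11.61 in controls, with all knockouts inside the controls' range. The change of 0.041 (SE 0.064, limma's adjusted p = 0.84) had an interval of -0.10 to 0.18, so a rise of the size seen in Il4ra lies outside it. Flt3 and Csf2rb2 had the smallest standard errors of the set.

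Monocyte and macrophage markers were higher on average in knockouts than in controls, as the receptors were. Among the 3 knockouts, the receptor mean was highest in replicate 1, where both marker means were lowest. Single receptors differed in their order. Il7r, Il13ra1 and Csf2ra were highest in knockout replicate 1, and Csf2rb, Csf2rb2, Il4ra, Il10ra and Flt3 in knockout replicate 2. Csf3r and the monocyte markers were highest in knockout replicate 3, and the red pulp markers in knockout replicate 2. In bulk samples a change in the number of cells of a type and a change in RNA per cell cannot be told apart. Monocyte markers averaged 0.30, 0.38 and 0.54 in knockouts and -0.18 to 0.12 in controls, without overlap, and all 11 changes were positive. By limma 6 of the 11 had an unadjusted p under 0.05, all higher, where 14.3% of all genes passed in either direction. After adjustment 1 passed, namely Ace (1.16, limma's adjusted p = 0.0096), which encodes the angiotensin-converting enzyme. The brightest, the lysozyme gene Lyz2, averaged 11.8 in knockouts and 11.6 in controls. Treml4, another bright marker of the list, averaged 11.30 in knockouts and 11.28 in controls. Red pulp macrophage markers averaged 0.22, 0.78 and 0.71 in knockouts and -0.62 to 0.61 in controls, and 0 of 11 passed limma's adjusted threshold, while 7 had an unadjusted p under 0.05, all higher. Of the list, Hmox1, for a heme-degrading enzyme and not past either threshold, averaged 10.7 in knockouts and 10.2 in controls with overlap. Adgre1 averaged 10.47 in knockouts and 10.41 in controls, also with overlap. Axl, a receptor kinase used in the uptake of dying cells, averaged 9.53 in knockouts and 8.72 in controls without overlap. The 9 receptor genes, averaged in the same way, stood at 0.39, 0.35 and 0.28 in knockouts and -0.083 to 0.05 in controls. Control replicate 2, whose red pulp markers stood at 0.61, had the highest control values of Csf2ra, Csf3r and Csf2rb and the lowest of Flt3. In the other receptors its value was neither the highest nor the lowest control. Its receptor mean was 0.035, against 0.05 in control replicate 6, whose red pulp markers stood at -0.21. The part of monocytes and macrophages in the receptor changes was not tested.

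**Figure D3:**
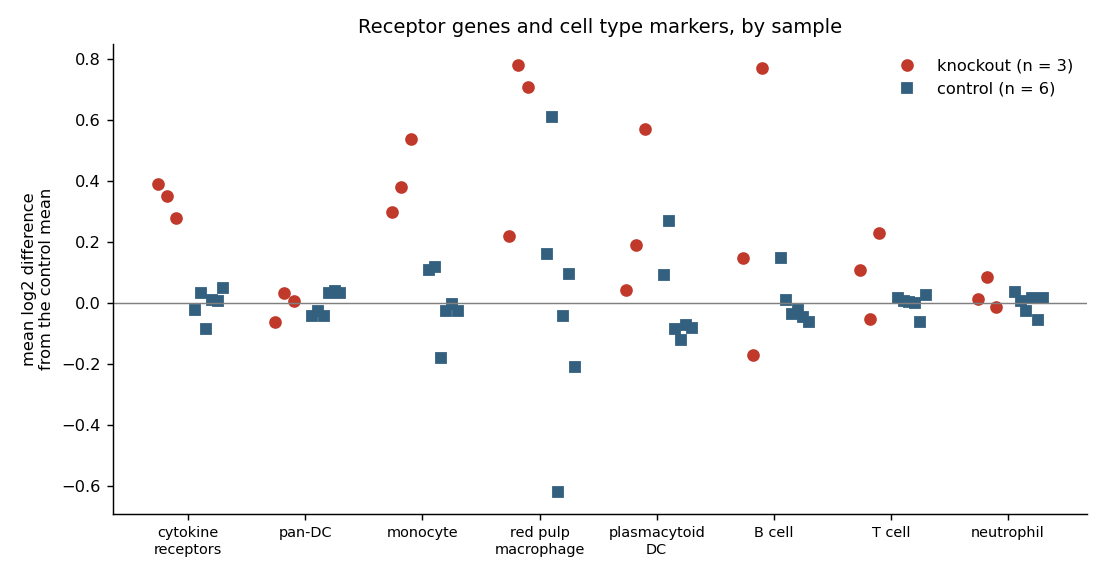
Mean log2 difference from the control mean for the 9 receptor genes and for markers of cell types, in each knockout (red circles, n = 3) and each control (blue squares, n = 6). Receptor genes and monocyte markers are higher in all 3 knockouts than in any control, red pulp and B cell markers overlap between the groups, and pan-DC and neutrophil markers stay near 0.

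Markers of DC subsets held 2 calls. Of 8 cDC1 markers 0 passed limma's adjusted threshold and 2 had an unadjusted p under 0.05 (1 higher, 1 lower), against 14.3% of all genes. Cd8a averaged 11.6 in knockouts and 11.8 in controls, and Itgae 8.56 in knockouts and 8.04 in controls. Of 8 cDC2 markers, Dtx1, a regulator of Notch signalling, fell by 0.46 (limma's adjusted p = 0.018) and the lectin gene Cd209a rose by 0.54 (adjusted p = 0.046), with a list median of -0.19. The Dtx1 call was lost without knockout replicate 2. The Cd209a call was lost in 7 of the 9 fits without 1 sample, and the mean of its probes gave -0.046 (limma's adjusted p = 0.90). Plasmacytoid DC markers averaged 0.045, 0.19 and 0.57 in knockouts and -0.12 to 0.27 in controls, and 0 of 8 passed limma's adjusted threshold, with 2 at an unadjusted p under 0.05. The basophil, mast cell and eosinophil list had 0 of 8 past either limma threshold, and 7 of its markers were dimmer than the median gene.

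The listed receptor genes outside the set gave no call in the fit described so far. With array weights 3 of the partner chains and 2 of the other receptors below were called higher, and with genes at or above the median level alone 3 and 1. Of 12 partner chains and related growth factor receptors, 0 passed limma's adjusted threshold, with 10 positive changes and a median of 0.17. An unadjusted p under 0.05 was found for 6 of the 12, all higher, and for 14.3% of all genes. The smallest p was that of Il2ra, the IL-2 receptor alpha chain, which differed by 0.56 (limma's adjusted p = 0.069). Il15ra, which presents IL-15, differed by 0.41 (adjusted p = 0.086). Both had all 3 knockouts above every control, as had 4 of the 12 and 2.52% of all genes. Of 26 other cytokine receptors, 0 passed limma's adjusted threshold, 4 had an unadjusted p under 0.05 and the median was 0.018. Lifr, the leukaemia inhibitory factor receptor, differed by 0.62 (adjusted p = 0.086), and Tnfrsf1b, a receptor of tumour necrosis factor, by 0.43 (adjusted p = 0.13).

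None of the measured ligands, kinases or STAT factors passed. Of 16 ligand genes, 3 had an unadjusted p under 0.05 and 14 were dimmer than the median gene, and the smallest p-values were those of Il15 (0.21, limma's adjusted p = 0.18) and Csf1 (0.24, adjusted p = 0.18). Of 9 JAK and STAT genes, 1 had an unadjusted limma p under 0.05, namely Stat4, for a STAT used by IL-12. Stat4 differed by 0.36 (adjusted p = 0.34) and Stat2 by -0.16 (adjusted p = 0.47). At an unadjusted p under 0.05, 14.3% of all genes and 6 of the 9 receptors passed.

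Feedback and response genes were read in lists that overlap, with Socs3 in 3 of them. Of all genes, 0.415% were called higher. Of 20 feedback inhibitors 1 rose, namely Socs3, an inhibitor of cytokine signalling, by 0.39 (limma's adjusted p = 0.046), with a list median of -0.022. Socs2 differed by 0.39 (adjusted p = 0.25). Of 13 STAT5 response genes 2 rose, Socs3 and the IL-6 family cytokine gene Osm (0.71, adjusted p = 0.0053), with a median of 0.12. Of 11 IL-10 response genes 2 rose, Socs3 and Il1rn (0.52, adjusted p = 0.048), which encodes the IL-1 receptor antagonist, with a median of 0.38. The IL-10 list held 6 calls with array weights and with the median filter and 0 with median centring. In fits without 1 sample Osm passed in all 9, while Socs3 passed only without knockout replicate 1 and Il1rn only without knockout replicate 3.

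Genes known to respond to IL-4 and IL-13 held 5 calls. Of 21 measured, 5 rose and 0 fell, where 0.415% of all genes were called higher, with a median of 0.17 against -0.014 over all genes. They were the chemokine genes Ccl17 (0.97, limma's adjusted p = 0.0024) and Ccl22 (0.45, adjusted p = 0.025), the lipid-sensing nuclear receptor Pparg (0.68, adjusted p = 0.016), and the lectin genes Mgl2 (0.90, adjusted p = 0.048) and Cd209a. The other 16 did not pass. Of all 21, 14 changes were positive, 8 genes were dimmer than the median gene, and 10 had an unadjusted limma p under 0.05 (9 higher, 1 lower). The list was written with earlier results of these data known, so its share of calls is not an independent comparison. Ccl17 averaged 6.79 in knockouts and 5.82 in controls, and Ccl22 averaged 10.3 in knockouts and 9.83 in controls. The count of calls was 1 without knockout replicate 2, 2 without control replicate 1 and 3 without any other sample. Ccl17 passed in all 9 fits and Pparg missed only without knockout replicate 2. Ccl22 missed without control replicates 1 and 6 and knockout replicates 2 and 3. Cd209a passed only without control replicate 6 or knockout replicate 3, and Mgl2 in none of the 9. Cd209a, also on the cDC2 list, is the gene whose direction turned with the mean of its probes.

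**Figure D4:**
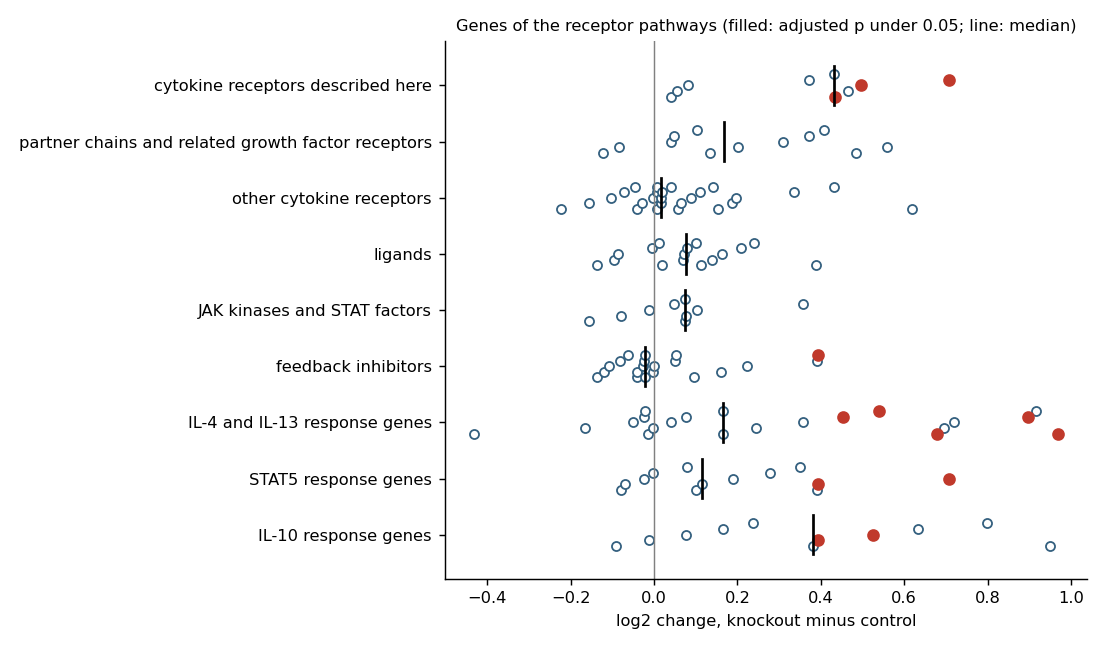
Log2 change, knockout minus control, of every measured gene of the receptor set and of 8 pathway lists; filled red points passed limma's adjusted p of 0.05, open points did not, and the black line is the list's median. The calls lie in the receptor set and among the feedback and response genes, and the partner chains, other receptors, ligands and kinases hold none.

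The genes with profiles most like those of the 3 called receptors were found by Pearson correlation over the 9 samples among 11089 genes at or above the median level, given as a description. Closest to Il7r were Bcl2l11 (r = 0.967), a gene of the BCL2 family, the metalloproteinase gene Mmp25 (0.966) and the death receptor gene Fas (0.963). Closest to Csf2rb2 were Wfdc17 (0.984), the sulfatase gene Sulf2 (0.971) and the complement receptor gene C3ar1 (0.969). Closest to Il4ra were the sialidase gene Neu1 (0.968), the signalling kinase gene Irak2 (0.966) and Nfe2l2 (0.957), which encodes a regulator of antioxidant genes. The first 6 and Nfe2l2 passed limma's adjusted p themselves and so share the step between groups. Neu1 (0.091, adjusted p = 0.45) and Irak2 (0.27, adjusted p = 0.11) did not, and the control values of Neu1 repeated to the third decimal in several samples. Such repeats were not particular to Neu1, and the IL-12 receptor gene Il12rb1 stood at 5.622 in all 3 knockouts. With group means removed, the correlation with Il4ra was 0.856 for Neu1 and 0.883 for Irak2. It was 0.776 for Nfe2l2, and ranged from 0.617 to 0.696 for the genes closest to Il7r and from 0.641 to 0.77 for those closest to Csf2rb2. All these genes were picked for high correlation over the same 9 samples, so high values here follow in part from that choice.

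**Figure D5:**
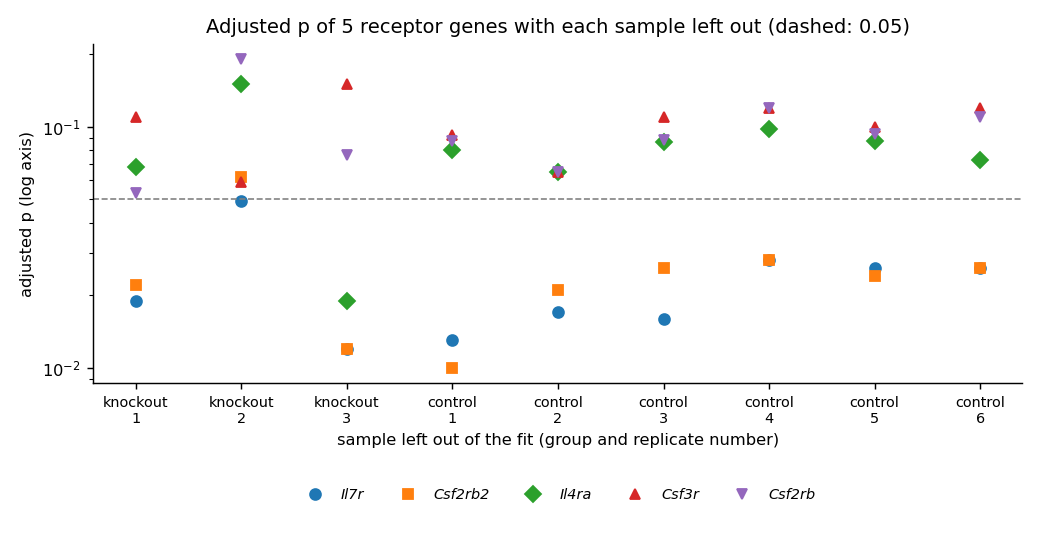
Limma's adjusted p over all genes (log axis) for Il7r, Csf2rb2, Il4ra, Csf3r and Csf2rb when the sample named on the horizontal axis was left out; the dashed line is 0.05. Il7r stays under the line throughout, Csf2rb2 crosses it without knockout replicate 2, Il4ra is under it only without knockout replicate 3, and Csf3r and Csf2rb stay above it.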

How the data were processed

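Gene expression was measured on 9 single-channel arrays, with 1 sample on each. The files deposited hold 1 log2 intensity for each probe and sample. The submitters' processing notes name RMA, and no source used here gives its version or settings. That the scale is log2 follows from the range of the values, and array medians lay between 5.49 and 5.56. Quantile normalization, a step of RMA, would remove a shift shared by most genes.

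Of 34468 probes with a value in every sample, 23521 carried exactly 1 symbol in the platform annotation and gave 22180 genes. Where a gene had several probes, the brightest on average stood for it. The test was limma 3.58.1 in R 4.3.3 (lmFit, then eBayes), two-sided and without covariates, with Benjamini-Hochberg adjustment across the 22180 genes. A change is the log2 difference of knockout over control, and SE is its standard error from limma. The 5 receptor pairs with both chains measured were tested by exact two-sided permutation over 84 splits.

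The receptor genes and the gene lists were chosen with earlier results of these data known. The rule for named genes took Cebpb, all receptor genes of the set, every gene past 0.05 in each pathway list or otherwise its 2 smallest p-values. It also took the 2 brightest markers and the smallest p of each cell type list, and the 3 most similar profiles for each of 3 receptors. Of the cell type lists, only some of the genes so taken are named above. Other genes named were chosen after their values were seen. The fit was checked on simulated data. Alternatives were other scalings, variance models, filters and probe rules, the replicate number as a block, and each sample left out. The number of arrays limits the precision. Python 3.11.15 (pandas 2.3.3, numpy 2.4.6, matplotlib 3.10.9) served for summaries and plots.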

Additional observations from a re-analysis of the deposited data

How the results depend on the processing

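All 9 receptor changes kept their positive direction in the 17 alternative fits. The number of receptors past 0.05 was 5 after a second quantile normalization, with array weights and with genes at or above the median level alone. The number of all genes past 0.05 was 652 with array weights and 537 with that filter, and fewer genes tested eases the adjustment. Centring each array on its median left Il7r and Csf2rb2 (2 receptors), with Il4ra at an adjusted p of 0.051, and Socs3 and Il1rn missed there too. Array weights added Csf2rb and Il13ra1, and the other 2 settings that gave 5 added Csf2rb and Csf3r. In fits without 1 sample the count of receptors ranged from 1 (without knockout replicate 2) to 3, their median change from 0.33 to 0.45, and the count of all genes from 33 (without knockout replicate 2) to 332 (without knockout replicate 1). Leaving out control replicate 1, 3, 4, 5 or 6 gave 66, 73, 49, 64 or 60 genes. The ratio of Il4ra over Il13ra1, near 0, was -0.0015 after a second quantile normalization and -0.080 to 0.134 without 1 sample. Same-numbered samples had correlations of deviations of -0.14, -0.10 and 0.047, and differently numbered samples -0.23 to 0.20. These few values cannot decide whether the numbers pair samples, and the labels do not say. With the replicate block 2 genes, 0 receptors and 0 IL-4 and IL-13 response genes passed by limma, where controls 4 to 6 add nothing to the estimate. The mean of its probes gave Cd209a -0.046. Il7r missed 0.05 under the block alone (adjusted p = 0.29). Where a cause is not named, the cause was not tested.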

Other observations

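Genes that neighbour the receptors in RefSeq order were read for changes of their own, chosen by position. Ncf4, a subunit gene of the phagocyte oxidase beside Csf2rb2, averaged 10.6 in knockouts and 10.7 in controls and differed by -0.11 (limma's adjusted p = 0.42), while its neighbours Csf2rb2 and Csf2rb differed by 0.50 and 0.37. Beside Il7r, Capsl differed by -0.029 and Spef2 by -0.069. Beside Il4ra, the IL-21 receptor gene Il21r differed by 0.20 (adjusted p = 0.27) and Nsmce1 by -0.17 (adjusted p = 0.31). None of these neighbours other than Csf2rb2 passed 0.05.

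Csf1r, the receptor of the macrophage growth factor CSF1, was chosen after its values were seen. It was 10.6, 10.9 and 10.9 in knockouts and 10.2 to 10.6 in controls, a change of 0.37 (limma's adjusted p = 0.097) with no overlap between the groups. Kit, the stem cell factor receptor, was 11.5, 11.2 and 11.1 in knockouts and 11.3 to 11.4 in controls, a change of -0.085 (adjusted p = 0.72).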
